A study of Mus musculus with 28 samples.

Results

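Obeticholic acid (OCA) given once daily at 30 mg/kg was compared with vehicle in the livers of 9 and 10 mice, 19 of the 28 samples of the study. All of the mice were male and of the leptin-deficient genotype B6.V-Lepob/JRj, ate the AMLN diet, which supplies fat, fructose and added cholesterol, for 14 weeks before and also during treatment, and were dosed by mouth for 2 weeks. The remaining 9 mice received INT-787 at 30 mg/kg and entered the fit and a direct comparison with OCA. The animals lacked leptin in every group, no lean or undosed liver was part of the comparison, and a baseline biopsy had been taken from each liver. Whole liver was sequenced, in which fewer cells of a type and less RNA per cell cannot be told apart.

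OCA is a bile acid derivative that activates the farnesoid X receptor (FXR), a nuclear receptor for bile acids which is abundant in hepatocytes and in the ileum. Activated FXR induces the small heterodimer partner and, through the ileum, a fibroblast growth factor signal, and both repress bile acid synthesis, while export pumps of the hepatocyte are induced. The receptor is also known to act on lipid, amino acid and plasma protein genes of the hepatocyte.

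Levels are in CPM (counts scaled to library size), given as the median of a group with its lowest and highest mouse in parentheses, and fold changes are from one edgeR fit across 12580 genes. Compared with vehicle, OCA changed 830 genes (6.6% of those tested) at an adjusted p of at most 0.05, 522 of them higher (4.15%) and 308 lower (2.45%). Genes called higher were 62.9% of the calls, and 52.3% with upper-quartile scaling. The median log2 fold change over all tested genes was 0.02. Of the 830, 540 were called in each of 19 further fits that left out 1 mouse in turn. For the single genes described below as changed, the number of these 19 fits in which the call was lost, or the mouse left out, is given where there was any. A set of 40 genes, most of them collagen, bile acid and lipid genes, was set apart as the study's own. Of these, 12 were called (30%, beside 6.6% of all genes), 7 higher and 5 lower.

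Total counts were 10990531 to 22421506 per mouse with OCA and 9313260 to 18342272 with vehicle, apart from vehicle 6 with 1009593. Vehicle 5 carried reads on the opposite strand. At 135 pairs of overlapping genes, picked for a low ratio in the median mouse, its ratio of opposite-strand to expected reads was 0.756. In the other 27 mice it was 0.0202 to 0.0307. Long genes were relatively higher or lower from library to library, with a correlation between deviation and log2 exon length of -0.62 to 0.65 in vehicle mice and -0.45 to 0.50 with OCA, while the fold change itself was nearly unrelated to length (r = 0.02 across 12576 genes, which are not independent). Hepatocyte markers summed to 65030 to 146800 CPM with vehicle and 110800 to 204000 CPM with OCA, ranges that overlapped, and OCA 8 had the lowest level of any OCA mouse in many of the hepatocyte lists below.

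Ptgds, which encodes the lipocalin-type prostaglandin D2 synthase, showed the largest rise. It lay at 0.737 CPM (0 to 1.31) with vehicle and at 38.7 CPM (16.4 to 66.0) with OCA. Every OCA mouse was above every vehicle mouse, and the rise was 51.5-fold (log2 fold change 5.69, SE 0.44, adjusted p = 1.36e-10). Tmem141, a small membrane protein gene, ranked second and rose from 10.9 CPM (7.29 to 17) to 45.4 CPM (26.8 to 66.1) (log2 fold change 2.03, SE 0.15, adjusted p = 5.11e-11). Paxx, which encodes a factor of DNA end joining, rose from 5.45 CPM (3.03 to 12.04) to 22.8 CPM (12.3 to 29.2) (log2 fold change 1.746, SE 0.19, adjusted p = 1.75e-07). These 3 genes lie close together on chromosome 2, at chr2:25466709-25470046, chr2:25620067-25622005 and chr2:25455141-25461094 (GRCm38). None of their OCA values reached into the vehicle range.

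Of the 12 largest rises among genes of at least 5 CPM, 10 had no overlap between the groups, a pattern seen in 0.604% of all tested genes. Lrtm2, a leucine-rich repeat membrane protein gene, was at 4.18 CPM (2.45 to 6.14) with vehicle and 16.7 CPM (10.5 to 21.8) with OCA (log2 fold change 2.02, SE 0.18, adjusted p = 1.57e-09). Its relative Lrtm1 was at 2.93 CPM (0.873 to 4.66) and 7.17 CPM (2.23 to 15.4), and here the groups overlapped (log2 fold change 1.37, SE 0.31, adjusted p = 0.00384). Aqp4, the gene of a water channel, was at 10.7 CPM (7.54 to 20.2) with vehicle and 34.3 CPM (21.1 to 63.8) with OCA (log2 fold change 1.752, SE 0.21, adjusted p = 8.36e-07). Mug2, which encodes a plasma protease inhibitor of the murinoglobulin group, was at 653 CPM (533 to 802) and 2014 CPM (1723 to 3573) (log2 fold change 1.72, SE 0.12, adjusted p = 7.80e-12). All of these calls were kept in each fit that left out 1 mouse.

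**Figure D1:**
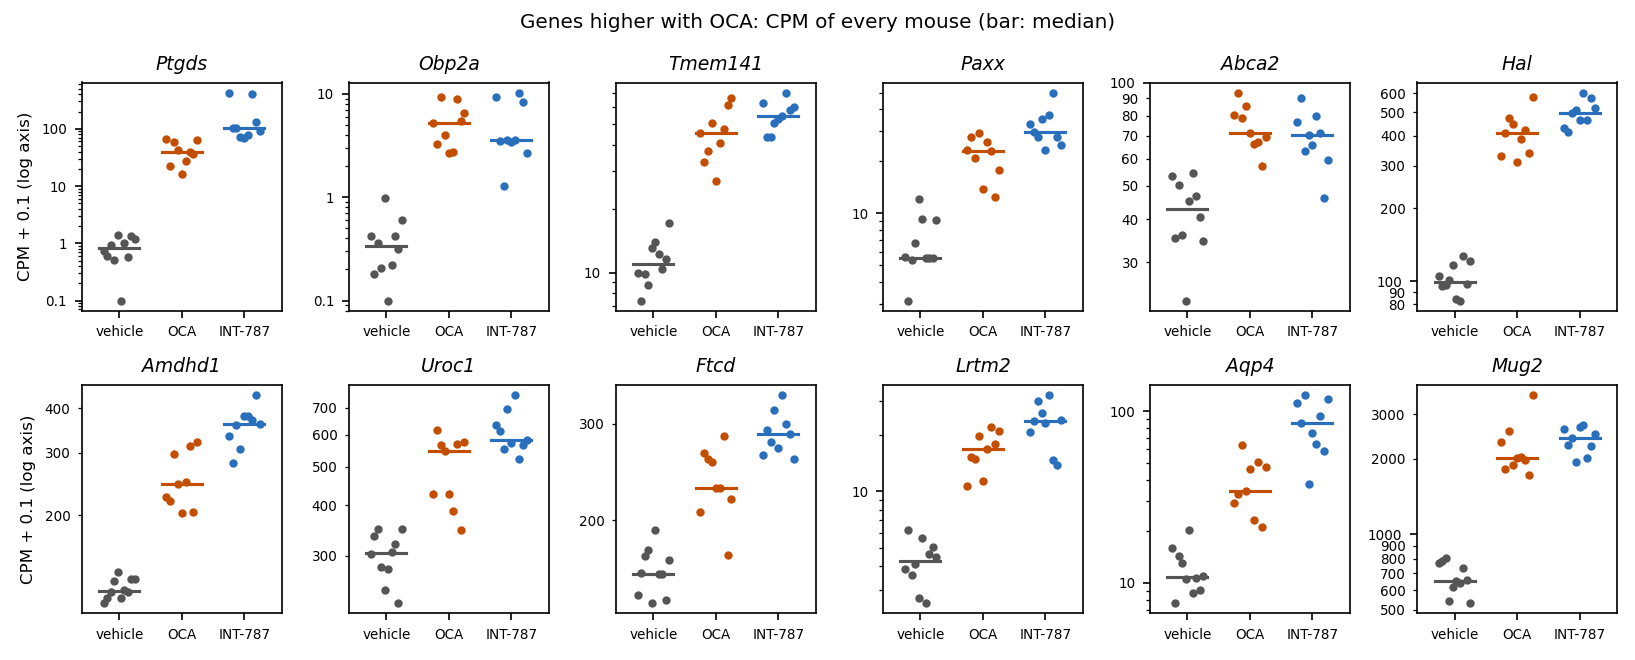
CPM plus 0.1 of every mouse on a log axis for 12 genes that were higher with OCA, with vehicle (10 mice), OCA (9) and INT-787 (9) side by side and the group median as a bar. In Ptgds the vehicle mice reach 1.31 CPM and the OCA mice start at 16.4 CPM, and in Hal, Tmem141 and Mug2 the groups are likewise apart. Obp2a, Abca2, Amdhd1 and Ftcd were added after their values were seen.

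Most genes of the periportal hepatocyte and amino acid lists rose. Periportal hepatocytes, which face the incoming portal blood, hold most of the urea cycle and of amino acid catabolism. Of 17 periportal genes tested, 12 rose (70.6%, beside 4.15% of all genes), and their median log2 fold change was 0.74. Of 20 genes of the urea cycle and amino acid catabolism, 12 rose (60%), with a median of 0.44, all 20 fold changes above 0 and 9 to 17 calls on leaving out 1 mouse. The lists share 6 tested genes, and together 19 of their 31 genes rose. Among 16 genes of pericentral hepatocytes, which surround the central vein, 2 rose and 1 fell (18.75% called, beside 6.6% of all genes). Their median was -0.01, with 1 to 3 calls in each direction on leaving out 1 mouse.

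Hal encodes histidine ammonia-lyase, the first enzyme of histidine breakdown. Its level was 99.1 CPM (83.0 to 127) with vehicle and 409 CPM (311 to 578) with OCA. The groups were far apart, and with an adjusted p of 1.48e-14 Hal had the smallest p of the rises described here (log2 fold change 2.00, SE 0.11). The next enzyme, urocanase (Uroc1), was at 305 CPM (228 to 349) and 546 CPM (347 to 618) (log2 fold change 0.73, SE 0.11, adjusted p = 1.66e-05). The last 2 enzymes of the route to glutamate were looked up afterwards for this reason, and both rose. Amdhd1, the imidazolonepropionase gene, was at 122 CPM (113 to 139) and 245 CPM (203 to 322) (log2 fold change 1.02, SE 0.09, adjusted p = 2.35e-09). Ftcd, which encodes the formiminotransferase, was at 159.5 CPM (141 to 191) and 229 CPM (173 to 285) (log2 fold change 0.55, SE 0.08, adjusted p = 3.21e-05). The groups were apart in Hal and Amdhd1 and overlapped in Uroc1 and Ftcd, and all 4 enzymes that turn histidine into glutamate were called higher with OCA.

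In the urea cycle, Cps1, the carbamoyl phosphate synthetase that admits ammonia, was at 1311 CPM (695 to 1523) with vehicle and 2389 CPM (1798 to 3139) with OCA (log2 fold change 0.89, SE 0.14, adjusted p = 3.97e-05). Ass1, the argininosuccinate synthetase gene, was at 700.3 CPM (594 to 872) and 1399 CPM (1041 to 1975) (log2 fold change 1.02, SE 0.11, adjusted p = 2.05e-07). Neither gene had overlapping groups. Otc rose by 0.56 and the ornithine carrier Slc25a15 by 0.59 on the log2 scale (adjusted p = 0.00493 and 6.23e-05). Gls2, the liver glutaminase gene, rose from 83.0 CPM (64.2 to 109.7) to 164 CPM (109 to 227) (log2 fold change 0.97, SE 0.15, adjusted p = 3.98e-05).

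Enzymes of tyrosine breakdown followed with smaller values. Tat rose by 0.61 and lost its call without OCA replicate 9. Hpd and Hgd rose by 0.42 and 0.37, and their calls were lost in 14 and 3 of the 19 fits. Tdo2, the tryptophan dioxygenase gene, was not called (log2 fold change 0.41, SE 0.16, adjusted p = 0.148). Among further periportal genes, Etnppl, a phosphoethanolamine lyase gene, was at 29.7 CPM (21.5 to 39.3) and 90.8 CPM (54.1 to 126) (log2 fold change 1.62, SE 0.13, adjusted p = 4.41e-10). Hsd17b6, which encodes a steroid-oxidising enzyme, was at 155 CPM (119.7 to 253) and 394 CPM (335 to 671) (log2 fold change 1.49, SE 0.15, adjusted p = 3.56e-08), again without overlap. Acmsd, the enzyme at the branch point of tryptophan breakdown, was in neither list and rose from 5.46 CPM (4.34 to 7.40) to 12.8 CPM (7.86 to 27.2) (log2 fold change 1.33, SE 0.20, adjusted p = 3.59e-05).

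**Figure D2:**
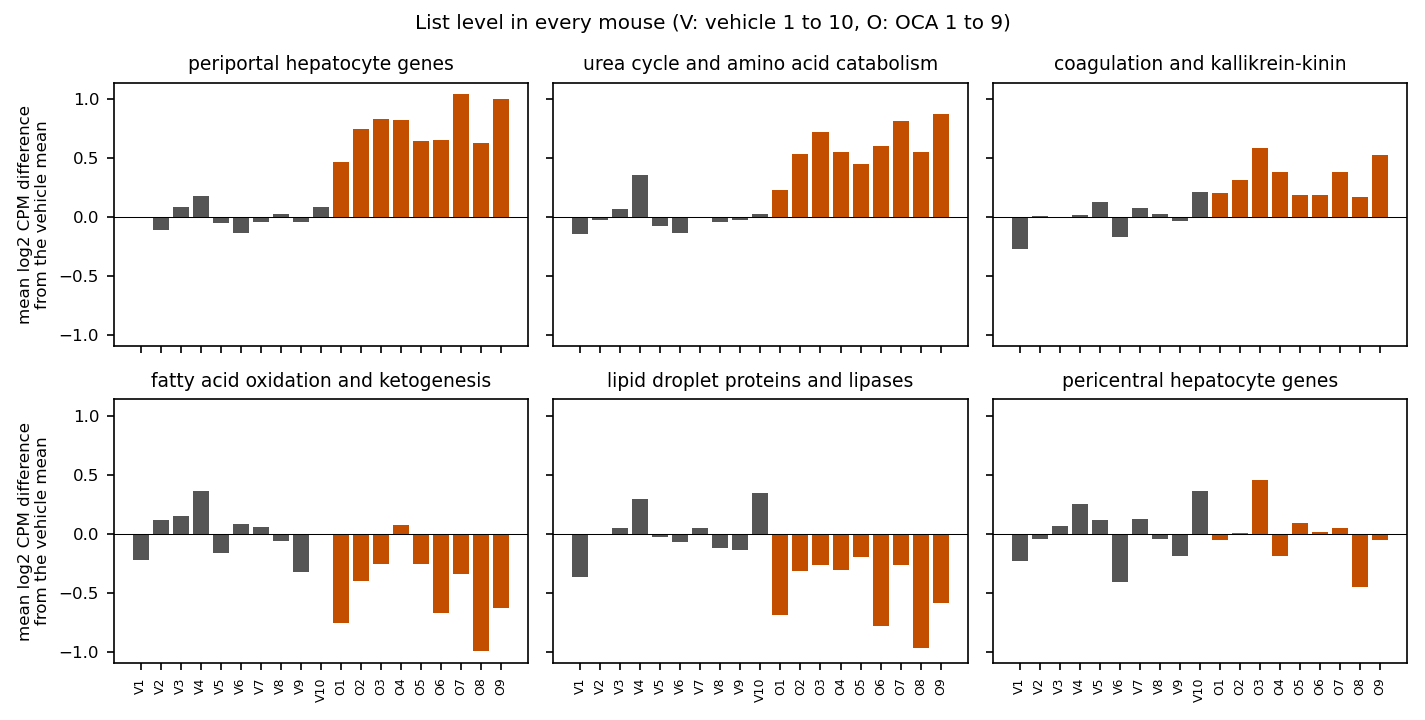
Mean log2 CPM difference from the vehicle mean over the tested members of 6 lists, one bar per mouse (V, vehicle 1 to 10; O, OCA 1 to 9). For the periportal list the OCA mice lie at 0.46 to 1.04 and the vehicle mice at -0.14 to 0.18; the pericentral list spans -0.46 to 0.46 with OCA and -0.41 to 0.36 with vehicle.

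The periportal level of each OCA mouse exceeded that of each vehicle mouse, with a median of 0.75 over the OCA mice in the plot of list levels by mouse. Without vehicle 5, vehicle 6 and OCA 8 together, 11 periportal genes and 9 of the amino acid list were called higher. Glul, the glutamine synthetase of the last pericentral cell layer, was at 1126 CPM (806 to 1539) and 874 CPM (405 to 1247) and was not called (log2 fold change -0.45, SE 0.15, adjusted p = 0.0633). Cyp2e1, a further pericentral gene, was at 5452 CPM (4036 to 8591) and 4268 CPM (2184 to 8360) (log2 fold change -0.35, SE 0.19, adjusted p = 0.321). Aldh1a1, the retinal dehydrogenase gene, was the pericentral gene that fell (log2 fold change -0.53, SE 0.13, adjusted p = 0.00983). Notum, an inhibitor of Wnt ligands, rose by 0.61, with its call lost in 3 of 19 fits.

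Several bile acid export genes and a few other known FXR targets rose. Abcb11 encodes the bile salt export pump, and its promoter holds an FXR site made of inverted half-sites around 1 base. It was at 324 CPM (253 to 506) with vehicle and at 879.9 CPM (615 to 1088) with OCA. No OCA mouse fell into the vehicle range, and the rise was 2.29-fold (log2 fold change 1.19, SE 0.14, adjusted p = 3.56e-07). The palindrome made of AGGTCA, any 1 base (N) and TGACCT, which reads the same on both strands, was searched in the RefSeq promoters (GRCm38.p6, 250 bases before to 50 after a start site) of the 9982 tested genes that had one. With at most 1 mismatch it occurred in 0.1% of these genes, in 0.964% of the 415 called higher (4 genes: Abcb11, Steap3, Rdh9 and Nbr1) and in none of the 237 called lower. With at most 2 mismatches the shares were 1.19%, 2.65% and 0.844%. A match is a description of letters and not of binding. A further 6 genes with at most 1 mismatch were not called, and their windows were not examined. The windows of Abcb11 and Rdh9 are shown because, among called genes, they carry the closest matches outside annotated exons. They lie on the minus strand at chr2:69342642-69342704 and on the plus strand at chr10:127776301-127776363. The 13 matched bases are in capitals and end 50 and 66 bases before the RefSeq start.
Abcb11: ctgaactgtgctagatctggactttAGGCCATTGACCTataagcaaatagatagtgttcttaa
Rdh9: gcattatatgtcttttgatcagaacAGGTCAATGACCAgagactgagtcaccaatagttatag

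Rdh9, a retinol dehydrogenase family gene picked for this match, was at 20.2 CPM (13.9 to 26.8) with vehicle and 33.5 CPM (29.5 to 41.8) with OCA (log2 fold change 0.74, SE 0.13, adjusted p = 0.000133). Steap3, which encodes an iron reductase, was at 41.0 CPM (28.8 to 51.4) and 69.1 CPM (56.8 to 87.2) (log2 fold change 0.76, SE 0.12, adjusted p = 5.10e-05). Both had no overlap between groups. The autophagy receptor gene Nbr1 rose by only 0.35, with its call lost in 14 of 19 fits.

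Of 14 tested FXR targets outside those 40 genes, 4 rose and 1 fell (35.7% called, beside 6.6% of all genes), with a median of 0.18. Mafg, a small Maf factor gene that represses bile acid synthesis, was at 32.5 CPM (24.02 to 37.99) and 55.1 CPM (39.2 to 64.0) (log2 fold change 0.69, SE 0.10, adjusted p = 3.24e-05). Akr1b7, an aldo-keto reductase gene, rose 6-fold from very low levels, with 100 counts in all vehicle mice together and 643 in all OCA mice (log2 fold change 2.58, SE 0.37, adjusted p = 1.26e-05). Osgin1, an oxidative stress response gene, rose by 0.70 and lost the call in 11 fits. Pdk4, the pyruvate dehydrogenase kinase gene, was the target that fell, from 13.6 CPM (4.597 to 24.6) to 6.18 CPM (4.47 to 12.5) (log2 fold change -0.96, SE 0.21, adjusted p = 0.00267). Abcc2 and Kng1 were not called (log2 fold change 0.12 at adjusted p = 0.7 and 0.19 at adjusted p = 0.39).

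Among 16 bile acid and sterol transporters, 7 rose and 1 fell (50% called, beside 6.6% of all genes, median 0.27). Abcg5 and Abcg8 together form the exporter of cholesterol into bile. Abcg5 was at 119.9 CPM (103 to 140.3) and 196 CPM (143 to 247) (log2 fold change 0.74, SE 0.14, adjusted p = 0.00037). Abcg8 was at 126 CPM (104 to 145) and 197 CPM (137 to 249) (log2 fold change 0.62, SE 0.12, adjusted p = 0.000521). Abcb1a, a multidrug exporter gene, rose from 24.5 CPM (11.2 to 33.3) to 55.5 CPM (33.5 to 77.2) (log2 fold change 1.17, SE 0.16, adjusted p = 1.02e-05). Slc51b, a subunit of the basolateral bile acid exporter, rose by 2.68. Slco2b1 and Atp8b1, an uptake carrier and a lipid flippase, rose by 0.32 and 0.44, with Slco2b1 losing its call without OCA replicate 3. Abcc4, a basolateral exporter that serves as an overflow route for bile acids, fell instead, from 17.8 CPM (9.49 to 24.1) to 7.37 CPM (5.15 to 12.6) (log2 fold change -1.04, SE 0.21, adjusted p = 0.00136).

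Bile acid synthesis moved in both directions. Of 13 genes tested, 4 fell and 4 rose (61.5% called, beside 6.6% of all genes), and the median was 0.00. The 4 that fell were hydroxylases: Cyp7a1 by 2.54 and Cyp8b1 by 4.11 on the log2 scale, Cyp7b1 of the alternative pathway by 0.53 (adjusted p = 0.00788), and Cyp27a1 by 0.28, a call lost in 11 of 19 fits. The 4 that rose included Akr1d1 and Cyp2c70. Akr1d1, the reductase of the sterol nucleus, was at 83.7 CPM (60.8 to 115) and 175 CPM (127 to 222) (log2 fold change 1.01, SE 0.11, adjusted p = 1.17e-07). Cyp2c70, which makes the muricholic acids of rodents, was at 165 CPM (127 to 245) and 277 CPM (207 to 436) (log2 fold change 0.76, SE 0.14, adjusted p = 0.000315). Cyp39a1 and Amacr rose by 0.74 and 0.46.

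A part of the lipid storage genes fell. Of 17 lipid droplet proteins and lipases, 7 were lower with OCA (41.2%, against 2.45% of all genes), with a median log2 fold change of -0.31. Cidea, which promotes the fusion of lipid droplets, was at 57.4 CPM (35.0 to 88.1) with vehicle and 13.3 CPM (1.80 to 27.3) with OCA. The ranges did not touch, and OCA 8 was among the mice with the least (log2 fold change -2.14, SE 0.40, adjusted p = 0.000447). Plin4, a droplet coat protein gene, was at 73.1 CPM (57.8 to 118) and 26.6 CPM (7.13 to 54.1) (log2 fold change -1.39, SE 0.27, adjusted p = 0.000643). Cidec was at 203 CPM (123 to 292) and 112 CPM (60.0 to 195), and here the groups overlapped (log2 fold change -0.82, SE 0.19, adjusted p = 0.00467). Fitm1 and Fitm2, which act in droplet budding, fell by 1.03 and 0.70. Plin2, the main coat protein of liver droplets, fell by 0.47 (adjusted p = 0.00525), and Mgll, the monoglyceride lipase gene, by 0.53, a call lost in 2 fits. In the list 6 genes were called lower without vehicle 5, vehicle 6 and OCA 8.

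Fatty acid oxidation genes were called in numbers that depended on the tool. Of 24 tested, 5 fell (20.8%, beside 2.45% of all genes) and 21 had a fold change below 0 (median -0.34). By limma-voom 9 of the 24 were called and by DESeq2 8, and leaving out 1 mouse left 4 to 8 falls. Acaa1b, a peroxisomal thiolase gene, was at 1790 CPM (1379 to 2134) and 897 CPM (603 to 1022) (log2 fold change -1.12, SE 0.14, adjusted p = 1.06e-06). Vnn1, the pantetheinase gene and a well-known target of the fatty acid receptor PPAR alpha, was at 216 CPM (182 to 259.7) and 111 CPM (75.2 to 158) (log2 fold change -0.94, SE 0.14, adjusted p = 2.90e-05). Neither gene overlapped between the groups. Hadhb and Slc25a20 fell by 0.45 and 0.39, the second with its call lost in 6 fits, including that without vehicle 6.

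Of 19 lipogenic genes outside the 40 set apart, 4 fell (21%, beside 2.45% of all genes), with a median of -0.24. Me1, the malic enzyme that supplies NADPH, was at 230.2 CPM (179 to 322) and 121 CPM (66.9 to 153) (log2 fold change -1.03, SE 0.14, adjusted p = 8.21e-06). Mogat1, a monoacylglycerol acyltransferase gene, was at 14.1 CPM (6.44 to 24.8) and 7.25 CPM (1.68 to 10.9) (log2 fold change -1.15, SE 0.25, adjusted p = 0.00284). Acacb and Elovl6 fell by 0.93 and 0.51, and the call of Acacb was lost without vehicle replicate 2. Elovl5 and Fads2 were not called, at log2 fold changes of -0.24 at adjusted p = 0.334 and -0.36 at adjusted p = 0.229. Of 20 cholesterol synthesis genes 4 rose (20%, beside 4.15% of all genes). These were Insig1, Stard4, Fdft1 and Msmo1, by 0.66, 0.48, 0.40 and 0.40. Their calls were lost in 0, 2, 11 and 7 fits, and leaving out 1 mouse left 1 to 5 calls. Of 22 lipoprotein genes 3 rose (13.6%, beside 4.15% of all genes). Lcat, the enzyme that esterifies plasma cholesterol, was at 376 CPM (273 to 573) and 558 CPM (440.1 to 684) (log2 fold change 0.48, SE 0.12, adjusted p = 0.0108). Angptl8 and Apof rose by 0.85 and 0.40, calls lost in 8 and 8 fits. Apoe was not called (log2 fold change -0.25, SE 0.14, adjusted p = 0.364).

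**Figure D3:**
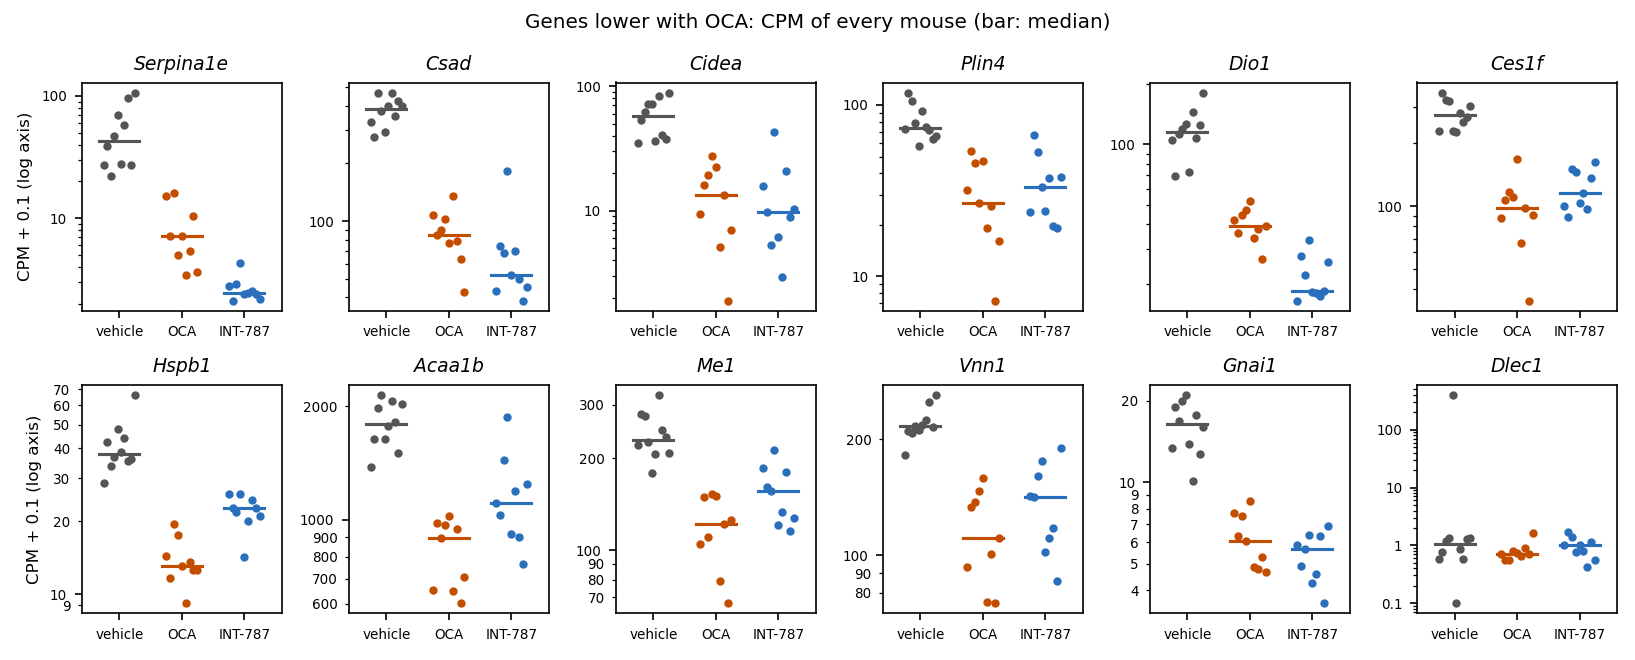
CPM plus 0.1 of every mouse on a log axis for 11 genes that were lower with OCA and for Dlec1, whose call rested on vehicle 5, with group medians as bars. Csad, Cidea, Plin4, Acaa1b and Me1 fall in every OCA mouse below every vehicle mouse; in Dlec1 a single vehicle mouse, vehicle 5 at 394 CPM, stands above all others, which reach 1.55 CPM at most among vehicle and OCA mice.

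The largest falls were ranked among called genes of at least 5 mean CPM outside the 40 set apart, which leaves out Cyp7a1, Cyp8b1 and the scarce Cfd. Ranked so with all mice, 9 of the 12 rested on vehicle 5. In each of these 9 (Dlec1, Gm20721, Mmp11, Ulk4, B3gnt8, Ackr4, Map3k12, Lrrc61 and Dvl2) vehicle 5 was the highest of 10 vehicle mice, and each overlaps a gene on the opposite strand. Dlec1, for one, was at 394 CPM in vehicle 5, at 0 to 1.26 CPM in the other 9 vehicle mice and at 0.457 to 1.55 CPM with OCA. Without vehicle 5 its log2 fold change went from -5.80 to -0.26 (adjusted p = 0.752), and all 9 calls were lost. These falls are therefore not described as changes with OCA. The other 3, Serpina1e, Csad and Cidea, were called with and without this mouse, and the falls below were ranked without it.

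Serpina1e, a member of the mouse alpha-1 antitrypsin family with male-biased expression, headed this ranking. It was at 42.7 CPM (21.9 to 106) with vehicle and 7.03 CPM (3.35 to 15.97) with OCA (log2 fold change -2.70, SE 0.31, adjusted p = 2.16e-07). Csad, the decarboxylase that makes taurine from cysteine sulfinic acid, was at 386 CPM (275 to 465.5) and 84.8 CPM (42.9 to 135) (log2 fold change -2.12, SE 0.23, adjusted p = 1.00e-07). Its OCA values were all below its lowest vehicle value, as in 0.286% of all genes. Dio1, which activates thyroid hormone, was at 116 CPM (69.7 to 181) and 38.9 CPM (26.7 to 52.0) (log2 fold change -1.56, SE 0.15, adjusted p = 2.02e-08). Ces1f, a carboxylesterase gene of the liver, was at 273 CPM (228 to 349.7) and 98.0 CPM (35.2 to 169) (log2 fold change -1.51, SE 0.18, adjusted p = 3.56e-07).

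Further falls in this ranking had groups that did not overlap, with the exception of Nt5e. Hspb1, a small heat shock protein gene, was at 37.7 CPM (28.6 to 65.9) and 12.9 CPM (9.10 to 19.4) (log2 fold change -1.58, SE 0.14, adjusted p = 1.57e-09). Clstn3, known for a form that binds lipid droplets in fat cells, was at 30.9 CPM (18.8 to 33.7) and 9.10 CPM (3.35 to 17.6) (log2 fold change -1.62, SE 0.21, adjusted p = 2.24e-06). Gnai1, an inhibitory G protein subunit gene, was at 16.3 CPM (9.98 to 20.8) and 5.97 CPM (4.55 to 8.41) (log2 fold change -1.40, SE 0.15, adjusted p = 5.89e-08). Sdcbp2, Rarres1 and Nt5e fell by 1.57, 1.35 and 1.47. All 12 falls of this ranking were also called with every mouse included.

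**Figure D4:**
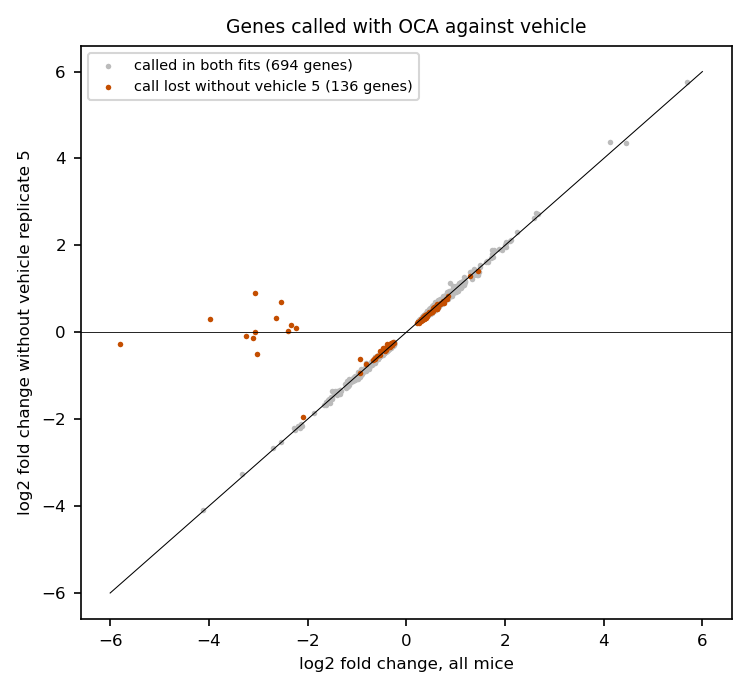
Log2 fold change of the 830 called genes with all mice (horizontal) and without vehicle 5 (vertical), with 694 genes called in both fits in grey and 136 that lost the call in orange. Most genes lie on the diagonal, and a group of large falls moves to values near 0 when this mouse is left out.

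Without vehicle 5, 136 of the 830 calls were lost, 89 rises and 47 falls, and 20 of the 47 falls overlapped a gene on the opposite strand, as 17% of all tested genes do. The losses without vehicle 6, vehicle 10 and OCA 8 were 68, 107 and 75. With vehicle 5, vehicle 6 and OCA 8 left out together, 796 genes were called (6.32%, 3.97% higher and 2.35% lower), 650 of them among the 830. Without vehicle 5 alone the shares were 6.04%, 3.79% and 2.25%.

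Some plasma protein genes made by hepatocytes rose, by less than 1 on the log2 scale. Of 18 coagulation and kallikrein-kinin genes, 7 rose (38.9%, median 0.28, 17 of 18 above 0), and 5 to 9 did on leaving out 1 mouse. F7, the initiator factor of coagulation, was at 40.3 CPM (35.0 to 45.6) with vehicle and 65.6 CPM (52.8 to 73.6) with OCA (log2 fold change 0.69, SE 0.08, adjusted p = 2.54e-07). Serpind1, heparin cofactor II, was at 312 CPM (289.6 to 361) and 505 CPM (429.9 to 689) (log2 fold change 0.68, SE 0.08, adjusted p = 4.76e-07). Serpinf2, the plasmin inhibitor, was at 386 CPM (308 to 478) and 580.2 CPM (495 to 769.5) (log2 fold change 0.55, SE 0.10, adjusted p = 0.000275). All 3 had separate groups. Klkb1 and F11 rose by 0.75 and 0.57, and Cpb2 and Plg by 0.42 and 0.30, with calls lost in 1 and 12 fits. Serpinc1, antithrombin, was not called (log2 fold change 0.31, SE 0.11, adjusted p = 0.0889).

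Of 24 acute phase genes, 8 rose (33.3%, median 0.32), and leaving out 1 mouse left 5 to 10. They were the inter-alpha inhibitor chains Itih3 and Itih4, both serpins Serpina3m and Serpina3n, the fibrinogen chains Fga and Fgb, Cp and C3. Itih3 was at 1000 CPM (844 to 1261) and 1612 CPM (1248 to 2241) (log2 fold change 0.69, SE 0.11, adjusted p = 5.28e-05). C3, the central complement component, was at 9672 CPM (7539 to 13450) and 15370 CPM (10110 to 20950) (log2 fold change 0.53, SE 0.14, adjusted p = 0.0124). The classical reactants Saa1, Saa2, Hp and Lcn2 were not among them. Calls of Serpina3n, Fgb and Cp were lost in 13, 11 and 7 fits, and that of Fga without OCA replicate 9. Alb itself rose by 0.62 (adjusted p = 0.00459), from 69210 CPM (48540 to 106300) to 106400 CPM (87790 to 169600). Of 8 hepatocyte markers 2 rose, Alb and Tat (median 0.24), and 4 without vehicle 5. The summed hepatocyte markers moved with these lists as given above, and their part in the rise was not tested.

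**Figure D5:**
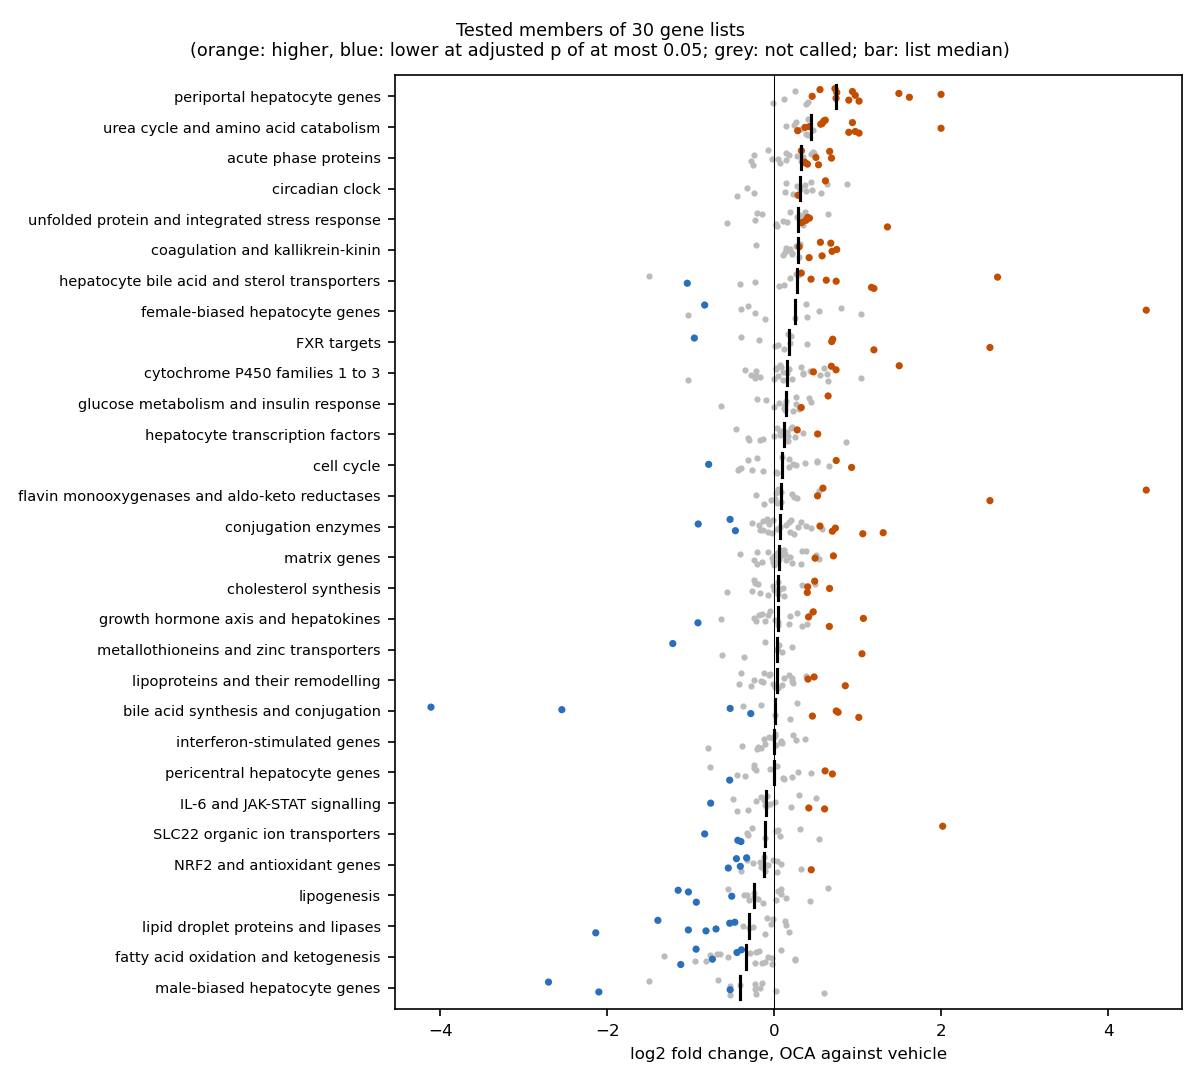
Log2 fold change, OCA against vehicle, of every tested member of 30 gene lists, with genes called higher in orange, called lower in blue, the rest in grey and the list median as a black bar. The periportal (median 0.74) and amino acid lists (0.44) stand at the top, and the fatty acid oxidation (-0.34) and male-biased lists (-0.41) at the bottom.

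Detoxification genes changed in a patchy way. Of 31 cytochrome P450 genes of families 1 to 3, 4 rose (12.9%, beside 4.15% of all genes). They were led by Cyp3a59 at 27.9 CPM (17.8 to 36.4) with vehicle and 77.8 CPM (29.8 to 104) with OCA (log2 fold change 1.497, SE 0.17, adjusted p = 2.16e-07). OCA 8 was the lowest OCA mouse there, at 29.8 CPM. Cyp3a25, Cyp2f2 and Cyp2d26 rose by 0.68, 0.74 and 0.47, with Cyp2f2 lost in 4 fits. Of 31 conjugation enzymes 5 rose and 3 fell (25.8% called, beside 6.6% of all genes). The glutathione transferase Gsta4 was at 95.3 CPM (70.2 to 149.9) and 237 CPM (177 to 406) (log2 fold change 1.31, SE 0.15, adjusted p = 2.05e-07), and Gsta2 at 24.5 CPM (16.7 to 37.0) and 45.7 CPM (30.1 to 90.9) (log2 fold change 1.06, SE 0.17, adjusted p = 8.98e-05). Gstm3, Gstt3 and Sult1d1 rose by 0.70, 0.73 and 0.55, whereas Ugt1a5, Ugt3a1 and Gstm4 fell by 0.91, 0.53 and 0.47. Counts of such close paralogs may share reads.

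Of 17 flavin monooxygenases and aldo-keto reductases, 4 rose (23.5%, beside 4.15% of all genes). Fmo5 rose from 1263 CPM (975.3 to 1793) to 1835 CPM (1374 to 2955) (log2 fold change 0.58, SE 0.12, adjusted p = 0.00114), and Akr1c19 by 0.52. Of 19 NRF2 and antioxidant genes, 4 fell and 1 rose (26.3% called, beside 6.6% of all genes, median -0.12). Gpx4, the phospholipid peroxidase gene, was at 368 CPM (263 to 477) and 263 CPM (157 to 302) (log2 fold change -0.55, SE 0.11, adjusted p = 0.000785). Srxn1, Hmox1 and Taldo1 fell by 0.45, 0.41 and 0.33, the last 2 with calls lost in 10 and 7 fits, while Gclm, the modifier subunit of glutathione synthesis, rose by 0.44.

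Carriers of organic ions and metals moved in both directions. Of 13 SLC22 genes 4 were called (30.8%, beside 6.6% of all genes). In this list 3 fell, among them Slc22a27 and Slc22a15 by 0.83 and 0.44, and 1 rose, Slc22a7, by 2.02. Of 10 metallothioneins and zinc transporters, Slc39a5, a zinc importer gene, fell from 9.04 CPM (6.72 to 16.6) to 4.40 CPM (2.30 to 5.60) without overlap (log2 fold change -1.22, SE 0.25, adjusted p = 0.00184). Slc30a1, a zinc exporter gene, rose by 1.05 from 54 counts over all vehicle mice to 117 over all OCA mice, a call lost in 3 fits. Mt1 was not called (log2 fold change -0.36, SE 0.28, adjusted p = 0.559).

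Sex-biased genes and hepatokines were examined next. Of 15 male-biased genes, 3 fell (Serpina1e, Cyp4a12a and Cyp7b1), which was 20% beside 2.45% of all genes, and the median was -0.41. Cyp4a12a, a male-specific hydroxylase gene, was at 61.3 CPM (14.7 to 159) and 17.1 CPM (1.24 to 69.9) (log2 fold change -2.10, SE 0.62, adjusted p = 0.0349), a call lost in 8 fits, including that without vehicle 5. Mup20, a major urinary protein gene, was not called (log2 fold change -0.53, SE 0.26, adjusted p = 0.262). Of 13 female-biased genes 1 rose and 1 fell (Slc22a27), which was 15.4% beside 6.6% of all genes, with a median of 0.25. Of 22 growth hormone axis and hepatokine genes 4 rose and 1 fell (22.7% called, beside 6.6% of all genes). Igfbp2 was at 82.2 CPM (46.1 to 97.0) and 162 CPM (74.8 to 206) (log2 fold change 1.07, SE 0.17, adjusted p = 5.28e-05). Gdf15, a stress-induced hepatokine gene, was at 10.4 CPM (7.70 to 16.6) and 5.26 CPM (2.98 to 8.93) (log2 fold change -0.91, SE 0.19, adjusted p = 0.00128). Ahsg, Rbp4 and Igfbp4 rose by 0.66, 0.47 and 0.41, the last with its call lost in 11 fits.

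Regulatory lists rested on 2 to 5 calls each, which was 10% to 22.7% of their members beside 6.6% of all genes. Of 22 unfolded protein and integrated stress response genes 5 rose (Asns, Herpud1, Hsp90b1, Dnajc3 and Creb3l3), with a median of 0.29, and without vehicle 5 only 2 did. The calls of Herpud1, Hsp90b1 and Creb3l3 were lost in 6, 12 and 3 fits. Asns, asparagine synthetase, went from 223 counts over all vehicle mice to 614 with OCA (log2 fold change 1.36, SE 0.27, adjusted p = 0.000999). Dnajc3, an ER chaperone partner, rose by 0.38. Hspa5 was not called (log2 fold change 0.27, SE 0.12, adjusted p = 0.224). Of 18 clock genes Tef and Bhlhe40 rose by 0.61 and 0.29, calls lost in 11 and 1 fits, with 0 to 6 calls on leaving out 1 mouse and 5 calls by DESeq2 and by limma-voom. Nr1d1 and Dbp were not called (log2 fold change 0.31 at adjusted p = 0.568 and 0.46 at adjusted p = 0.163).

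Of 17 glucose and insulin response genes, Slc2a2, the hepatocyte glucose carrier, rose from 578 CPM (438 to 675) to 919.6 CPM (697 to 1157) without overlap (log2 fold change 0.65, SE 0.09, adjusted p = 1.29e-05). Gckr rose by 0.32, a call lost in 12 fits. Of 20 hepatocyte transcription factors, Klf15, a driver of amino acid catabolic genes, rose from 55.2 CPM (37.6 to 82.8) to 78.8 CPM (68.5 to 93.1) (log2 fold change 0.52, SE 0.10, adjusted p = 0.00104). Nr5a2 rose by 0.28, with its call lost in 14 fits, and Hnf4a was not called (log2 fold change 0.06, SE 0.09, adjusted p = 0.776). Of 17 IL-6 and JAK-STAT genes Lepr, the receptor of the absent leptin, fell from 6.32 CPM (4.46 to 11.6) to 3.65 CPM (2.85 to 6.00) (log2 fold change -0.76, SE 0.22, adjusted p = 0.0277, lost in 5 fits). Il1r1 and Il1rap rose by 0.60 and 0.41, lost in 15 and 13 fits. Of 21 cell cycle genes Ccnd1, cyclin D1, rose from 139.8 CPM (95.7 to 158) to 235 CPM (166 to 347) (log2 fold change 0.93, SE 0.13, adjusted p = 1.30e-05), and Cdkn1a, the inhibitor p21, fell from 36.8 CPM (27.5 to 61.2) to 23.6 CPM (13.6 to 29.9) (log2 fold change -0.79, SE 0.16, adjusted p = 0.00145). Mcm6 rose by 0.74 (lost in 10 fits), OCA 8 had the highest level of the whole list at 1.00 on the log2 scale, and Mki67 was not called (log2 fold change -0.31, SE 0.25, adjusted p = 0.583).

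Non-parenchymal and inflammatory genes gave few calls, and matrix genes were called at about the share of all genes. Of 28 matrix genes outside the 40 set apart, 2 were called (7.1%, beside 6.6% of all genes). Fn1 rose by 0.49 (adjusted p = 0.0141) and Lum by 0.71, lost in 14 fits. Spp1, one of the macrophage markers counted below, and Col18a1 of the matrix list were not called (log2 fold change 0.38 at adjusted p = 0.202 and 0.22 at adjusted p = 0.418). In the edgeR, DESeq2 and limma-voom fits of all 3 groups, no call was made among 18 interferon-stimulated genes (2 with an unadjusted p below 0.05), 17 Kupffer cell and macrophage markers (3), 8 lymphocyte markers (2), 2 neutrophil markers (0), 10 sinusoidal endothelial markers (5), 9 cholangiocyte markers (1), 10 quiescent stellate cell markers (2), 5 erythrocyte markers (1) and 1 pancreatic acinar marker (0). The 10 endothelial fold changes were nevertheless all below 0 (median -0.27), and their summed level was 272 to 507 CPM with vehicle and 249 to 382 CPM with OCA. Without vehicle 5, 1 of them was called, as was 1 without OCA replicate 2. An erythrocyte marker was called higher without OCA replicate 6. With vehicle 5, 6 and 10 and OCA 8 left out together, 1 erythrocyte marker was called higher and 1 cholangiocyte marker lower. All 8 lymphocyte fold changes were below 0 as well (median -0.49, and -0.24 without vehicle replicate 10, the mouse with the highest level of this list), and 1 of them was called without OCA 8 and likewise without vehicle replicate 1. Ecm1, a stellate marker, had a log2 fold change of -0.32 at adjusted p = 0.0986. OCA 8 held the highest OCA sums of macrophage (2671 CPM), cholangiocyte (299 CPM), lymphocyte (14.2 CPM) and neutrophil markers (8.44 CPM).

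Of the adipocyte markers only Cfd, adipsin, passed the filter. It fell from 1.79 CPM (0.477 to 7.36) with vehicle to 0.185 CPM (0 to 0.998) with OCA (log2 fold change -3.33, SE 0.55, adjusted p = 9.44e-05), resting on 311 and 34 counts over each group. Adipoq, Lep and Retn, 3 of the 5 markers, had no count in any of the 19 mice. Of the 10 acinar markers 4 (Ctrb1, Pnlip, Amy2a1 and Cel) were at 0 in all of them.

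INT-787 at the same 30 mg/kg was compared with OCA directly for the 149 called genes of the lists and of the 12 top-ranked rises and falls. It differed from OCA in 35 of them (23.5%, against 5.38% of all genes). Over all genes 2.19% were higher and 3.19% lower with INT-787. Of the 99 rises, 20 were higher and 8 lower with INT-787. The 50 falls include the 9 that rested on vehicle 5, none of which differed. Without them 35 of 140 genes (25%) differed, and of the 41 falls left, 6 were higher with INT-787 and 1 was lower. These genes were chosen for their change with OCA, whose values enter both comparisons.

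Intervals are unadjusted, on the log2 scale and for INT-787 minus OCA. Ptgds was at 104 CPM (70.3 to 424) with INT-787, a difference of 1.99 (95% interval 1.35 to 2.63, adjusted p = 0.000253). Akr1d1 was at 313 CPM (237 to 351), a difference of 0.88 (95% interval 0.66 to 1.10, adjusted p = 6.20e-06). Gsta2 and Aqp4 were also higher, by 1.12 (95% interval 0.77 to 1.46, adjusted p = 0.000134) and 1.14 (95% interval 0.73 to 1.54, adjusted p = 0.000852). On the other side, Itih4 was lower with INT-787, with a difference of -0.85 (95% interval -1.05 to -0.65, adjusted p = 2.32e-06), as was Serpina3n, with -0.66 (95% interval -0.86 to -0.46, adjusted p = 0.000134). Over the whole lists, 16 of 24 acute phase, 12 of 28 matrix and 9 of 17 macrophage genes passed the test as lower with INT-787, while 17 of 31 conjugation and 10 of 20 cholesterol synthesis genes passed it as higher. Serpina1e, which headed the ranked falls with OCA, was lower still with INT-787, with a difference of -1.65 (95% interval -2.30 to -0.99, adjusted p = 0.00296). Dio1, ranked without vehicle 5, was lower too, with -0.86 (95% interval -1.16 to -0.55, adjusted p = 0.000874).

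Differences were not called for several leading genes, whose intervals are wide enough to hold sizeable ones. Hal differed by 0.28 (95% interval 0.07 to 0.49, adjusted p = 0.131), Tmem141 by 0.28 (95% interval -0.0018 to 0.56, adjusted p = 0.292) and Mug2 by 0.10 (95% interval -0.13 to 0.34, adjusted p = 0.724). Cidea differed by 0.04 (95% interval -0.74 to 0.81, adjusted p = 0.985) and Csad by -0.32 (95% interval -0.76 to 0.11, adjusted p = 0.477). Cps1, with a difference of 0.10 (95% interval -0.18 to 0.37, adjusted p = 0.792), was likewise not called.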

How the data were processed

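Livers of 28 male mice were sequenced as poly(A) RNA with a stranded kit, and 19 of them, 10 given vehicle and 9 given OCA, are described. The authors deposited raw counts per Ensembl gene. Per the study's methods reads were aligned with STAR 2.5.2a to the mouse genome with Ensembl release 89, and the counting program and its strand setting are not given in the sources used here. Columns were matched to mice by the number in the labels. Symbols and positions came from GENCODE M21 (GRCm38), which held 21858 of the 21935 genes; 4615 genes had no count in any mouse.

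Counts were filtered with filterByExpr, scaled by the trimmed mean of M-values and fitted with edgeR 4.0.16 quasi-likelihood models in R 4.3.3 over all 28 mice in 3 groups. Contrasts were OCA minus vehicle and INT-787 minus OCA, two-sided, with Benjamini-Hochberg adjustment over 12580 genes. Each p in the text is edgeR's. On simulated counts of 12505 genes, 200 changes of size 1 (log2) were planted in genes of at least 5 mean CPM. The OCA comparison recovered 194, with 6 false calls among 200. The simulation held no opposite-strand library and no trend with gene length. The median absolute log2 fold change of the 830 calls was 0.55, below the planted size. The recovery therefore does not describe smaller changes or scarcer genes in these libraries. Alternatives were DESeq2 1.42.0, limma-voom (limma 3.58.1), other scalings and filters, blocks by replicate and sample number, and each mouse left out.

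Genes named were the 12 largest rises and 12 largest falls among called genes of at least 5 mean CPM outside 40 genes set apart as the study's own (Cyp7a1 and Cyp8b1 among them), the called members of 30 gene lists and 10 marker lists, and 1 or 2 abundant members that were not called. The members and lists were chosen with earlier results of these data known. Falls ranked without vehicle 5, histidine, sulphur amino acid, carboxylesterase and Serpina1 genes, the neighbours of Ptgds and Rdh9, Steap3 and Nbr1 were added after values were seen. The opposite-strand ratio divided the counts of a gene by those expected from its partner over the exon bases they share. It was taken over 135 pairs of overlapping genes with enough expected counts and a low ratio in the median mouse. The low values of the other mice thus follow in part from this choice. Each sample is 1 mouse, and p-values measure the spread between mice. Counting error adds to it in genes of few counts, such as Cfd and Akr1b7, and in vehicle 6, whose depth of 1009593 makes 1 count worth about 1 CPM. A few named genes are not reported here. Scan or extraction batches are not in the labels.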

Additional observations from a re-analysis of the deposited data

Results flagged for a closer look

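In 404 groups (the genes named above, by treatment, and total counts), the gap of the highest or lowest mouse to the rest was tested by Dixon's criterion, which chance exceeds in about 1 of 20 groups. It was exceeded in 35 (8.663%). Vehicle 5 accounted for 11, OCA 8 for 8, vehicle 6 for 4 and vehicle 10 for 2. The 11 of vehicle 5 include the 9 falls that rested on it, which were named because this mouse was extreme in them. The share of flagged groups therefore cannot be read against the 1 in 20.

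Vehicle 5 stood high in Dlec1 (394 CPM), Gm20721 (946.7), Mmp11 (123), Ulk4 (99.25), B3gnt8 (129), Ackr4 (92.7), Map3k12 (114), Lrrc61 (345), Dvl2 (182.5) and Il1rap (104.5), and low in Abca2 (23.1 CPM). OCA 8 stood low in Cyp3a59 (29.8 CPM), Serpina3m (208), Fitm1 (12.9), Glud1 (1260.0), Cyp3a25 (259.6), Pigr (919.8), Glul (405) and Ces1e (26.1 CPM).

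Vehicle 6 had no count of Ptgds (0 CPM) or Asns (0 CPM), was low in F11 (15.6 CPM) and had the lowest total, 1009593 counts, against 9313260 to 18342272 in the other vehicle mice. Vehicle 4 stood high in Tdo2 (1550.0 CPM), and low in Srxn1 (98.8) and Nr1d1 (32.7 CPM). Vehicle 10 was low in Nr5a2 (36.4 CPM) and high in Dpp7 (53.7 CPM), vehicle 9 low in Slc2a2 (438 CPM) and vehicle 1 low in Ces1e (113 CPM). OCA 9 was high in Dlec1 (1.55 CPM) and Serpind1 (689 CPM) and low in Gpx4 (157 CPM), OCA 4 low in Tef (75.3 CPM) and OCA 5 high in Sdcbp2 (8.68 CPM). The part of the opposite-strand reads of vehicle 5 and the low depth of vehicle 6 in these values was not tested.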

How the results depend on the processing

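The count of 830 changed genes became 435 at an adjusted p of at most 0.01. With the threshold kept at 0.05, it became 154 when a log2 change of 1 or more either way was also required. It was 770 with DESeq2 size factors, 780 with upper-quartile scaling, 773 with no filter, 693 with at least 10 counts in every mouse, 948 and 891 with DESeq2 on 3 and 2 groups, 851 with limma-voom, 814 with robust estimation and 661 with the 2 groups alone. Leaving out 1 mouse gave 666 to 936. Genes called higher made up 62.9% of calls, and 52.3% with upper-quartile scaling. The direct comparison of INT-787 with OCA gave 29 to 40 of the 149 genes on leaving out 1 mouse.

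A replicate block gave 868 calls and a block by sample number 807. Mice with the same replicate number deviated together in only 3 of 9 pairs (r over 0.1; range -0.20 to 0.43), and mice of 1 number set in 4 of 8, so the numbers were not treated as pairs.

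Over 32 alternatives the 174 called genes of the text gave 5541 values, of which 4919 kept direction and call, 587 lost the call and 35 changed sign; 110 genes kept both throughout. The sign changed in 7 of the falls that rested on vehicle 5 and in Cdo1, which was not called. With DESeq2 on 3 groups the log2 fold change was 0.28 for Gm20721, 0.87 for Ulk4, 0.011 for B3gnt8, 0.30 for Ackr4, 0.68 for Map3k12, 0.16 for Lrrc61 and 0.077 for Dvl2. On 2 groups it was 0.26 for Gm20721, 0.87 for Ulk4, 0.29 for Ackr4, 0.66 for Map3k12, 0.15 for Lrrc61 and 0.075 for Dvl2. With limma-voom it was 0.18 for Ulk4, 0.20 for Map3k12 and -0.0079 for Cdo1. Leaving out 1 mouse gave values of -4.24 to 0.32 for Gm20721, -3.25 to 0.90 for Ulk4, -3.21 to 0.014 for B3gnt8, -2.82 to 0.33 for Ackr4, -2.71 to 0.70 for Map3k12, -2.51 to 0.16 for Lrrc61, -2.39 to 0.091 for Dvl2 and -0.069 to 0.092 for Cdo1, and in the first 7 the upper value was that without vehicle 5. Without vehicle 5, vehicle 6 and OCA 8 it was 0.32 for Gm20721, 0.72 for Ulk4, 0.30 for Ackr4, 0.58 for Map3k12, 0.15 for Lrrc61 and 0.13 for Dvl2. With vehicle 10 left out as well, an alternative chosen after seeing the data, it was 0.40 for Gm20721, 0.63 for Ulk4, 0.078 for B3gnt8, 0.22 for Ackr4, 0.48 for Map3k12, 0.14 for Lrrc61 and 0.19 for Dvl2. For Cdo1 it was -0.015 with upper-quartile scaling, -0.0066 with the number set as block and below 0 without vehicle 1, vehicle 2, OCA 3 or OCA 6. The cause of the changes in Cdo1 was not tested.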

Other observations

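The genes around Ptgds were looked at after 3 of the 12 largest rises had been seen to lie together. Within 250 kb on either side of it on chromosome 2, 10 of 25 tested genes were called (40.0%), 7 higher and 3 lower. In other windows of the same size across the genome that did not overlap, at most 5 were called (of 26, around Acadvl on chromosome 11), and the median was 0. Beside Ptgds, Paxx and Tmem141, Obp2a, an odorant-binding lipocalin gene, rose from 38 counts over all vehicle mice to 738 over all OCA mice (log2 fold change 4.13, SE 0.43, adjusted p = 4.35e-08). Abca2, a lipid transporter gene, was at 42.8 CPM (23.1 to 54.3) with vehicle and 71.4 CPM (57.1 to 93.2) with OCA (log2 fold change 0.83, SE 0.13, adjusted p = 4.38e-05). C8g, of the complement membrane attack complex, rose from 236 CPM (155 to 467) to 386 CPM (322 to 478) (log2 fold change 0.62, SE 0.15, adjusted p = 0.00652), and Bmyc by 0.64 with its call lost in 7 of 19 fits. In contrast Dpp7, Uap1l1 and Fcna in the same window fell by 0.45, 0.59 and 0.79.

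Sulphur amino acid genes were looked up because Csad fell. Cth, which releases cysteine from cystathionine, rose from 74.8 CPM (43.8 to 88.0) to 156 CPM (109 to 205) (log2 fold change 1.14, SE 0.15, adjusted p = 3.16e-06). Cbs, one step before it, rose from 349.9 CPM (235 to 449) to 470.5 CPM (348 to 652) (log2 fold change 0.44, SE 0.12, adjusted p = 0.0238), and Sqor, which oxidises hydrogen sulfide, from 142 CPM (114 to 152) to 210.0 CPM (183 to 264) (log2 fold change 0.67, SE 0.08, adjusted p = 6.40e-07). The taurine carrier genes Slc6a13 and Slc6a6 rose by 0.86 and 0.42, the second with its call lost in 5 fits. Cdo1, which makes the substrate of Csad, was at 1301 CPM (1040 to 1741) and 1325 CPM (804 to 2003) (log2 fold change 0.02, SE 0.13, adjusted p = 0.973), and Suox was not called (log2 fold change 0.32, SE 0.10, adjusted p = 0.0629).

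Carboxylesterase 1 genes, which lie side by side and can share reads, were called in both directions. Ces1d, Ces1e and Ces1f fell by 1.21, 1.09 and 1.51 on the log2 scale. Ces1g rose from 260.4 CPM (229 to 352) to 393 CPM (266 to 559.8) (log2 fold change 0.61, SE 0.11, adjusted p = 0.000341), and Ces1b and Ces1c were not called (log2 fold change -0.21 at adjusted p = 0.516 and 0.33 at adjusted p = 0.0664).

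Other Serpina1 paralogs, which can also share reads, were looked up because Serpina1e fell. Serpina1a, Serpina1b and Serpina1c were not called, with log2 fold changes of 0.37 at adjusted p = 0.297, 0.28 at adjusted p = 0.246 and 0.45 at adjusted p = 0.137. Serpina1d rose by 0.58, with its call lost in 7 of 19 fits.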
